A study of Homo sapiens with 6 samples.

Results

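The genes described here are 10 members of the ERBB signalling system in the breast cancer line MDA-MB-231, a human triple-negative line with mesenchymal features, and were taken by gene name from a count table of 27776 genes. They are the receptor genes EGFR, ERBB2 and ERBB3, the ligand genes HBEGF, AREG, EREG, TGFA, BTC and NRG1, and the inhibitor gene ERRFI1. The names were chosen with earlier results of these data known. Polyadenylated RNA was sequenced from 3 libraries of cells labelled as the khellin group and 3 libraries labelled as the control group. Khellin is a furanochromone from the plant Ammi visnaga, and the labels used here state neither its dose nor the time of exposure. The design text of the series describes one of its groups as docetaxel-resistant, a term that no sample title carries, so that it is unclear whether the control cells, or all cells, had been made resistant. The sample titles number the libraries as biological replicates without stating separate cultures, and the p-values then measure only the spread between these libraries. RNA of whole cultures was measured, so a change in the share of some cells and a change in RNA per cell cannot be told apart.

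ERBB receptors are membrane tyrosine kinases that pair with each other when a ligand binds and pass the signal on to the ERK and PI3K-AKT pathways. ERBB2 has no known ligand of its own, and ERBB3 is a weak kinase that signals through its partners, most of all ERBB2. The ligands are made as membrane-bound precursors that proteases release. ERRFI1, also known as MIG6, binds the kinase domain of EGFR and blocks it, and its own transcription is raised by growth factor signals, which makes it a feedback inhibitor. In triple-negative breast cancer EGFR is the receptor of the family that is most often abundant, whereas ERBB2 and hormone receptors are not.

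Khellin libraries had less EGFR RNA and more ERBB2 and ERBB3 RNA than control libraries. The receptor inhibitor ERRFI1 and the ligand HBEGF were also lower with khellin, whereas AREG, EREG, TGFA, BTC and NRG1 did not pass the test. The change of ERBB3 was the largest of the 10, a 1.66-fold rise, and the other 4 called genes lay between 0.825-fold and 1.14-fold. Of the 10 genes, all of which passed the filter on low counts, 2 were called higher and 3 lower by the quasi-likelihood test of edgeR, with a Benjamini-Hochberg adjusted p below 0.05. Over all 15865 tested genes, 19.4% were called, 10.6% higher and 8.82% lower. The khellin and control values did not overlap for 6 of the 10 genes, against 38.2% of all tested genes. The median log2 fold change, khellin over control throughout, was 0.03 for the 10 genes and 0.00 for all tested genes.

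Total counts ranged from 28631578 to 30291087 in khellin libraries and from 29662956 to 30956610 in control libraries, and these totals did not differ beyond their spread (p = 0.3, two-sided exact permutation test, n = 3 each). A group of 3 against 3 cannot give a p below 0.1 in that test. Control replicates 1 and 3 differed most among libraries of a group, with a chi-square of 20.8 per degree of freedom over genes, against 1.91 to 5.40 among the khellin pairs. The label of the line was checked against marker genes. VIM, a mesenchymal marker, averaged 2146 CPM (reads relative to the library total, scaled with TMM factors) in khellin and 1971 CPM in control libraries, and the hormone receptor gene ESR1 averaged 0.322 CPM and 0.280 CPM in the same order. The epithelial cadherin gene CDH1 averaged 0.056 CPM in khellin libraries and was at 0 in each control library.

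Promoter sequence is shown for the 3 genes that fell with khellin, EGFR, HBEGF and ERRFI1, to set them beside the neighbouring ligand genes AREG and EREG, which did not pass. Each sequence is the 250 bases before the RefSeq transcription start on GRCh38.p14, written from 5′ to 3′ on the strand of the gene. Windows were found for 8 of the 10 genes, all but ERBB3 and NRG1. Capitals mark matches, on either strand, to TGANTCA (AP-1), TGACGTCA (the cyclic AMP response element, CRE), GGAATG (TEAD), GGGCGG (SP1), CCAAT (the CCAAT box), CCGGAAG (ETS) and TATAAA (the TATA box).
EGFR, chr7:55018767-55019016, plus strand: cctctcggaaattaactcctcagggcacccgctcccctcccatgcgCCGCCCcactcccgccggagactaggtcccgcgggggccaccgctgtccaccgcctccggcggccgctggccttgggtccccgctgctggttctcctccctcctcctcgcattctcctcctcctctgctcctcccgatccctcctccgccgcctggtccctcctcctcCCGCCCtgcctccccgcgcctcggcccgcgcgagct
HBEGF, chr5:140346604-140346853, minus strand: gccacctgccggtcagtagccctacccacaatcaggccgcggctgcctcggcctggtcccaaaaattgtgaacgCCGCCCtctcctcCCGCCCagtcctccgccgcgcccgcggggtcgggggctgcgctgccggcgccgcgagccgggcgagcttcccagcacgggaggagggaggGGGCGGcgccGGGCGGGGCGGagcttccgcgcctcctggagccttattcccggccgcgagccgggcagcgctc
ERRFI1, chr1:8026310-8026559, minus strand: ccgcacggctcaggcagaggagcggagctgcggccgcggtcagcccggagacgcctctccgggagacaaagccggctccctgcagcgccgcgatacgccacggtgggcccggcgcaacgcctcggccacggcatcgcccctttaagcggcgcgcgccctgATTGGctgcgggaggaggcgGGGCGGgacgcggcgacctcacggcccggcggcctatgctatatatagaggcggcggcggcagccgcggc
AREG, chr4:74444886-74445135, plus strand: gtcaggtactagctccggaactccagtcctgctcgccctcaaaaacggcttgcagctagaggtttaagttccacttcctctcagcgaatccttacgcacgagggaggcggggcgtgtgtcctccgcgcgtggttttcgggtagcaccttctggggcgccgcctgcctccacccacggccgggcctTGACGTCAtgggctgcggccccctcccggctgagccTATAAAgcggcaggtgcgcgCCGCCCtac
EREG, chr4:74364895-74365144, plus strand: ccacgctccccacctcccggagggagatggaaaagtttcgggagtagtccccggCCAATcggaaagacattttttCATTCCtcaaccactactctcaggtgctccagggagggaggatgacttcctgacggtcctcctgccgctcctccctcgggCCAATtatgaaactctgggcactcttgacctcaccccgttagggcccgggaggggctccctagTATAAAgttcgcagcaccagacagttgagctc

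The EGFR, HBEGF and ERRFI1 windows held 2, 5 and 1 matches to the SP1 motif and none to the exact letters TATAAA. Their G and C content was 73.6%, 76.4% and 75.2%. The ERRFI1 window also held 1 CCAAT box. Near its 3′ end the ERRFI1 window reads tatatata, a TATA-like stretch that the search for TATAAA did not count, so it cannot be taken as lacking a TATA box. A pair of the HBEGF matches overlap, and the last 28 bases of that window are annotated as exon in GENCODE 29. The AREG and EREG windows held 1 match each to TATAAA, whose first base lies 29 bases before the start in AREG and 32 bases before it in EREG. The AREG window also held 1 SP1 match and the full CRE, from 65 to 58 bases before the start, and the EREG window held 2 CCAAT boxes and 1 TEAD match. Of 35116 windows of the same length in the RefSeq table, 42.64% held an SP1 match, 10.72% TATAAA, 1.65% the CRE, 32.01% a CCAAT box and 11.89% a TEAD match. No window of the 5 held the AP-1 or ETS letters, which 6.57% and 8.52% of all windows did. TGFA did not pass, yet its window was like those of the genes that fell. It had 3 SP1 matches, no TATAAA and a G and C content of 75.6%, and is not printed because annotated exons cover 189 of its 250 bases. The AREG, EREG and BTC windows had a lower G and C content, 65.2%, 58.0% and 62.0%. The BTC window had no match to any of the motifs, and annotated exons cover 163 of its 250 bases. The window of ERBB2, which was called higher, is not printed either, and annotated exons cover all of its 250 bases. It held 1 AP-1 match, 2 ETS matches and 1 CCAAT box. A match of letters is a description of the window and does not show that a factor binds there.

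EGFR (ENSG00000146648) spans chromosome 7 from 55019017 to 55211628 (plus strand, GRCh38) and was the most abundant of the receptor genes. Its level was 545, 535 and 541 CPM in khellin libraries 1 to 3 and 667, 639.9 and 584 CPM in control libraries 1 to 3. All khellin libraries were lower than all control libraries, and the khellin libraries were spread less widely than the control libraries. The coefficient of variation of the CPM was 0.937% in khellin and 6.69% in control libraries, where counting error alone gives 0.788% and 0.730%. The means were 540.4 ± 5.06 CPM in khellin and 630.3 ± 42.1 CPM in control libraries (SD, n = 3 each), and the log2 fold change was -0.22 (SE 0.0513, edgeR adjusted p = 0.0151), or 0.857-fold. The call depended on the number of libraries: the adjusted p was 0.0591, 0.0645 and 0.0696 without khellin replicates 1, 2 and 3 and 0.0674 without control replicate 2, while the log2 fold change stayed between -0.23 and -0.21 in these 4 fits. The antisense gene EGFR-AS1, which shares 186 annotated exon bases with EGFR, had at most 14 reads in a khellin library and 28 in a control library, against at least 15812 for EGFR.

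ERBB2 (ENSG00000141736), the receptor without a known ligand, spans chromosome 17 from 39687914 to 39730426 (plus strand). It had 115, 123 and 116 CPM in khellin libraries 1 to 3 and 101, 105 and 104 CPM in control libraries 1 to 3. Every khellin library was above every control library, the opposite order to EGFR. The means were 118 ± 4.65 CPM in khellin and 103 ± 2.06 CPM in control libraries (SD, n = 3 each), a log2 fold change of 0.19 (SE 0.0471, edgeR adjusted p = 0.019) or 1.14-fold. The adjusted p was 0.0536, 0.0785 and 0.0668 without khellin replicates 1, 2 and 3 and 0.0648 without control replicate 2. ERBB2 shares 571 annotated exon bases with MIEN1 and 194 with PGAP3, both on the opposite strand. No source used here states whether reads were counted by strand, so reads in these stretches cannot be assigned to a gene with certainty. MIEN1 had 772 to 822 reads in khellin and 800 to 929 in control libraries, and PGAP3 had 153 to 201 in khellin and 136 in each control library.

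ERBB3 (ENSG00000065361, plus strand of chromosome 12, 56076799 to 56103505), the receptor that binds neuregulins, differed most. It had 258, 284 and 259 reads in khellin libraries and 159, 146 and 177 reads in control libraries, or 8.89, 9.55 and 8.43 CPM with khellin and 5.37, 4.96 and 5.86 CPM in control. The lowest khellin library stood well above the highest control library. The log2 fold change was 0.73 (SE 0.0944, 95% confidence interval 0.52 to 0.94, edgeR adjusted p = 0.000815), and 4.03% of tested genes had a larger absolute log2 fold change. The gene kept its call in all 16 alternative settings, with log2 fold changes from 0.67 to 0.79 and adjusted p-values of at most 0.00716. Its spread within each group, 6.26% in khellin and 8.30% in control libraries, was close to the 6.12% and 7.89% that counting error gives at this depth. ERBB4, the remaining receptor of the family, had 3, 11 and 10 reads in khellin and 7, 8 and 3 reads in control libraries, which was too few to be tested.

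**Figure D1:**
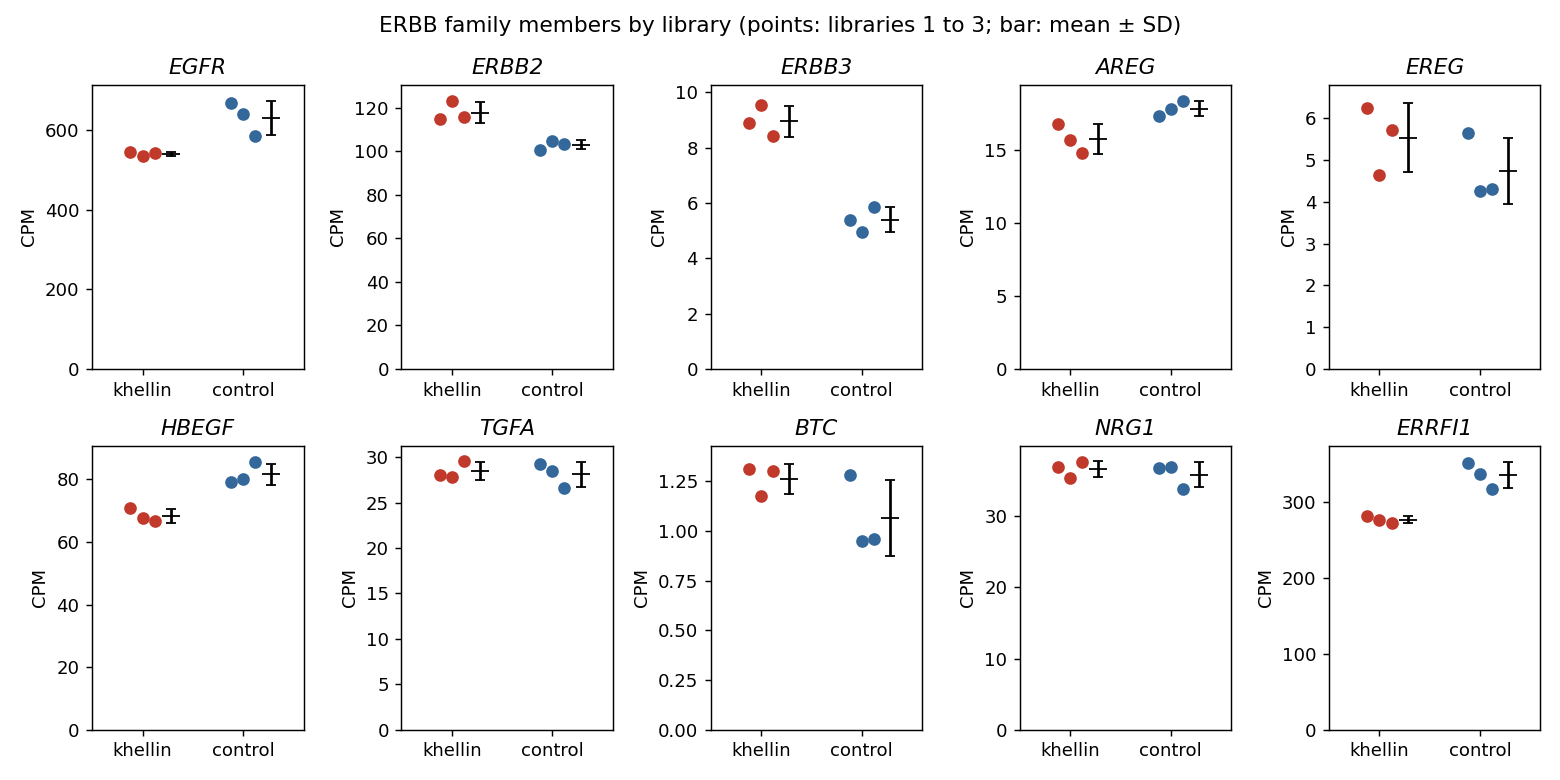
CPM of each of the 10 genes in khellin libraries (red, left) and control libraries (blue, right), with the mean ± SD of 3 libraries as a bar and each vertical axis starting at 0. The groups do not overlap for EGFR, ERBB2, ERBB3, AREG, HBEGF and ERRFI1, and EGFR and ERRFI1 vary more among control than among khellin libraries.

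Ratios of raw counts within a library do not depend on how libraries are scaled, and they showed the same shift among the receptors. There were 4.76, 4.35 and 4.68 EGFR reads for each ERBB2 read in khellin libraries and 6.62, 6.11 and 5.64 in control libraries. For each ERBB3 read there were 61.3, 56.0 and 64.2 EGFR reads in khellin libraries and 124, 129 and 99.8 in control libraries. The ratio of ERBB2 to ERBB3 reads was lower with khellin as well, 13.2 ± 0.477 against 19.2 ± 1.76 (SD, n = 3 each), so that ERBB3 rose relative to both EGFR and ERBB2. None of these 3 ratios overlapped between khellin and control libraries, and each gave p = 0.1 in a two-sided exact permutation test (0.12 after adjustment over the 6 ratios computed), the smallest p that 3 against 3 libraries allow.

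**Figure D2:**
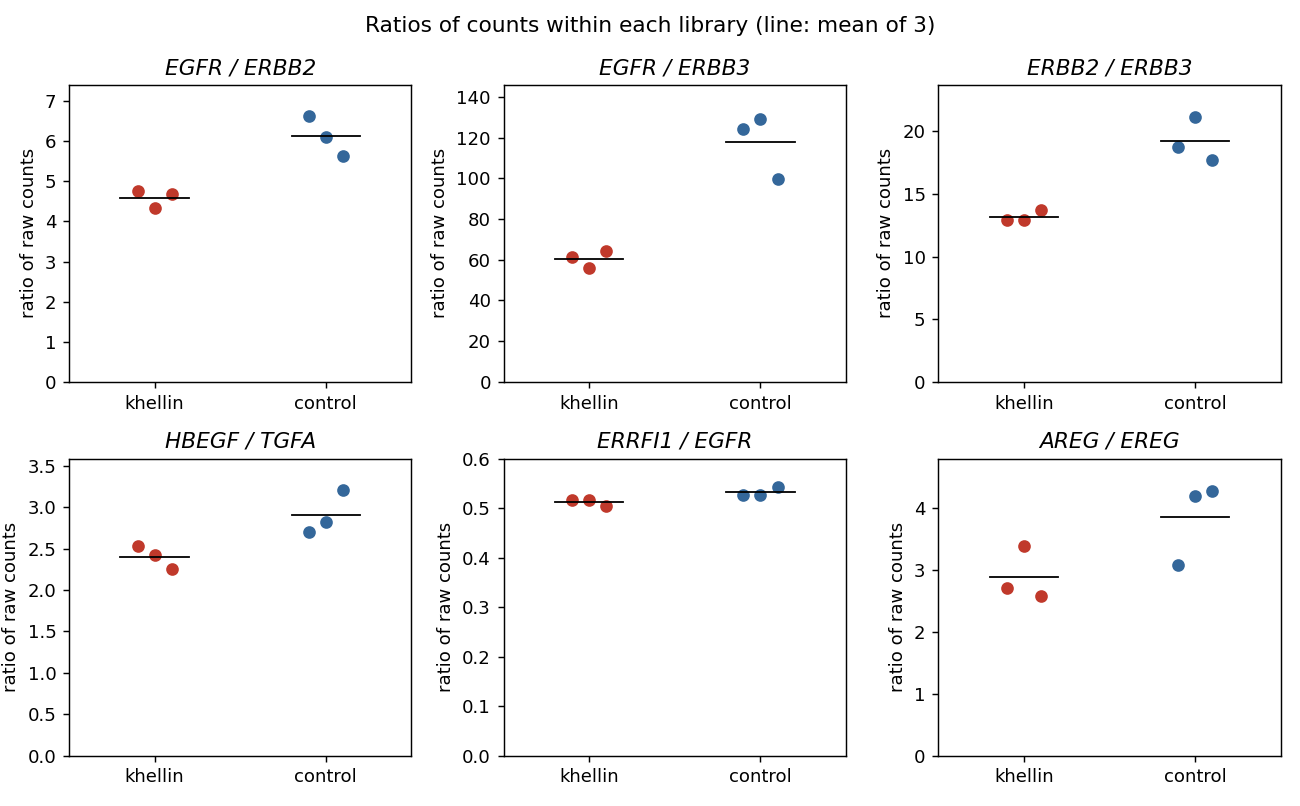
Ratios of raw counts of gene pairs in khellin libraries (red, left) and control libraries (blue, right), with points for libraries, a line for the mean of 3 and axes from 0. All ratios except AREG to EREG separate khellin from control libraries, each lower with khellin.

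Levels of different genes were compared as CPM per kilobase of annotated exon, for which the total exon length of each gene in GENCODE 29 was used. ERRFI1 stood highest with 66.2 CPM per kilobase in khellin and 80.2 in control libraries, followed by EGFR with 43.2 and 50.3 and HBEGF with 22.7 and 27.0, each given for khellin first. TGFA (5.74 and 5.67), NRG1 (3.24 and 3.17) and BTC (0.448 and 0.378) came lower. The order of ERBB2 and AREG differed between the groups. In khellin libraries ERBB2 had 11.1 to 11.9 and AREG 8.97 to 10.2 CPM per kilobase, whereas in control libraries ERBB2 had 9.76 to 10.2 and AREG 10.5 to 11.1. ERBB3 and EREG overlapped in khellin libraries, at 0.933 to 1.06 and 0.811 to 1.09, and did not in control libraries, where ERBB3 had 0.549 to 0.648 and EREG 0.743 to 0.987 CPM per kilobase. On this scale EGFR made up 77.7 ± 0.858% of the sum of the 3 receptors in khellin and 82.6 ± 1.17% in control libraries, ERBB2 20.5 ± 0.767% and 16.4 ± 1.07%, and ERBB3 1.78 ± 0.106% and 0.984 ± 0.128% (SD, n = 3 each). The cells may use shorter transcripts than the annotated total, which would move a gene in this order.

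HBEGF, the heparin-binding ligand of EGFR and ERBB4, was the most abundant ligand gene and the one ligand gene that passed the test. The gene (ENSG00000113070) is on the minus strand of chromosome 5 from 140332843 to 140346603. It had 71.0, 67.6 and 66.8 CPM in khellin libraries and 79.1, 80.2 and 85.5 CPM in control libraries. All khellin values lay below all control values. The log2 fold change was -0.25 (SE 0.0526, edgeR adjusted p = 0.00948), or 0.839-fold. Leaving out khellin replicate 3 ended the call (edgeR adjusted p = 0.0617). HBEGF took 53.2 ± 0.314% of the CPM per kilobase of the 6 ligand genes in khellin and 56.4 ± 1.32% in control libraries, AREG 22.4 ± 0.870% and 22.6 ± 0.320%, and TGFA 13.5 ± 0.740% and 11.8 ± 0.779% (SD, n = 3 each).

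AREG, EREG, BTC and the gene EPGN, which encodes the ligand epigen, lie next to each other on chromosome 4. EPGN and EREG are 48.4 kb apart, EREG and AREG 56.4 kb, and AREG and BTC 289.8 kb. AREG encodes amphiregulin, a ligand of EGFR (ENSG00000109321, plus strand, 74445136 to 74455005), and had 16.8, 15.7 and 14.8 CPM in khellin and 17.3, 17.8 and 18.4 CPM in control libraries. Its khellin values were all lower, but the difference did not pass the test over all genes (log2 fold change -0.18, SE 0.0714, edgeR adjusted p = 0.114). EREG encodes epiregulin, a ligand of EGFR and ERBB4 (ENSG00000124882, plus strand, 74365145 to 74388749), and had 6.24, 4.64 and 5.73 CPM in khellin and 5.64, 4.25 and 4.30 CPM in control libraries. These ranges overlapped (log2 fold change 0.23, SE 0.146, edgeR adjusted p = 0.317). The ratio of AREG to EREG reads, 2.70, 3.38 and 2.58 in khellin and 3.07, 4.19 and 4.27 in control libraries, gave p = 0.2 in a two-sided exact permutation test (0.2 adjusted over the 6 ratios). BTC, betacellulin, had 38, 35 and 40 reads in khellin and 38, 28 and 29 reads in control libraries, and its 95% interval ran from 0.894-fold to 1.57-fold. EPGN had 2 to 5 reads in khellin and 3 to 6 reads in control libraries and was not tested.

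TGFA, the gene of transforming growth factor alpha, and NRG1, the neuregulin gene whose product binds ERBB3 and ERBB4, were near equal in the groups. TGFA had 28.1, 27.8 and 29.6 CPM in khellin and 29.3, 28.4 and 26.6 CPM in control libraries, a log2 fold change of 0.02 (SE 0.0633, edgeR adjusted p = 0.861). NRG1 had 37.0, 35.4 and 37.7 CPM in khellin and 36.8, 36.9 and 33.8 CPM in control libraries, a log2 fold change of 0.03 (SE 0.0616, edgeR adjusted p = 0.754). The intervals bound these differences more closely than those of EREG and BTC. The 95% confidence interval ran from 0.919-fold to 1.12-fold for TGFA and from 0.930-fold to 1.13-fold for NRG1. The ratio of HBEGF to TGFA reads was 2.53, 2.43 and 2.25 in khellin and 2.70, 2.82 and 3.21 in control libraries, without overlap (two-sided exact permutation p = 0.1, adjusted 0.12, n = 3 per group).

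Among the family genes outside the 10, EGF, which encodes the founding ligand of EGFR, had 36, 24 and 46 reads in khellin and 33, 21 and 16 reads in control libraries. Its log2 fold change was 0.59 (SE 0.309, edgeR adjusted p = 0.219), with overlap between the groups. NRG2 had 53, 66 and 48 reads in khellin and 37, 47 and 70 reads in control libraries (log2 fold change 0.11, SE 0.232, edgeR adjusted p = 0.775). NRG4 had at most 5 reads in a khellin library and 9 in a control library, and NRG3 had 1 read in 1 control library and none elsewhere. Both were too low to be tested. The limit that a count of 0 allows, 3 reads, corresponds to 0.0977 to 0.103 CPM in khellin and 0.0992 to 0.102 CPM in control libraries.

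ERRFI1 (ENSG00000116285, minus strand of chromosome 1, 8004404 to 8026309), the feedback inhibitor, was lower with khellin, as was EGFR. It had 282, 276 and 273 CPM in khellin libraries and 352, 338 and 318 CPM in control libraries. The khellin values lay closely together below all control values. The log2 fold change was -0.28 (SE 0.0469, edgeR adjusted p = 0.00344), or 0.825-fold, and ERRFI1 kept its call in every alternative setting, with adjusted p-values of at most 0.0299. For each EGFR read there were 0.517, 0.516 and 0.504 ERRFI1 reads in khellin libraries and 0.527, 0.528 and 0.544 in control libraries. This ratio was lower with khellin by little, though without overlap (two-sided exact permutation p = 0.1, adjusted 0.12 over the 6 ratios, n = 3 per group). An unnamed long noncoding gene on the opposite strand (ENSG00000284747) shares 155 annotated exon bases with ERRFI1 and had 31 to 37 reads in khellin and 36 to 45 reads in control libraries, against at least 8177 reads for ERRFI1.

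**Figure D3:**
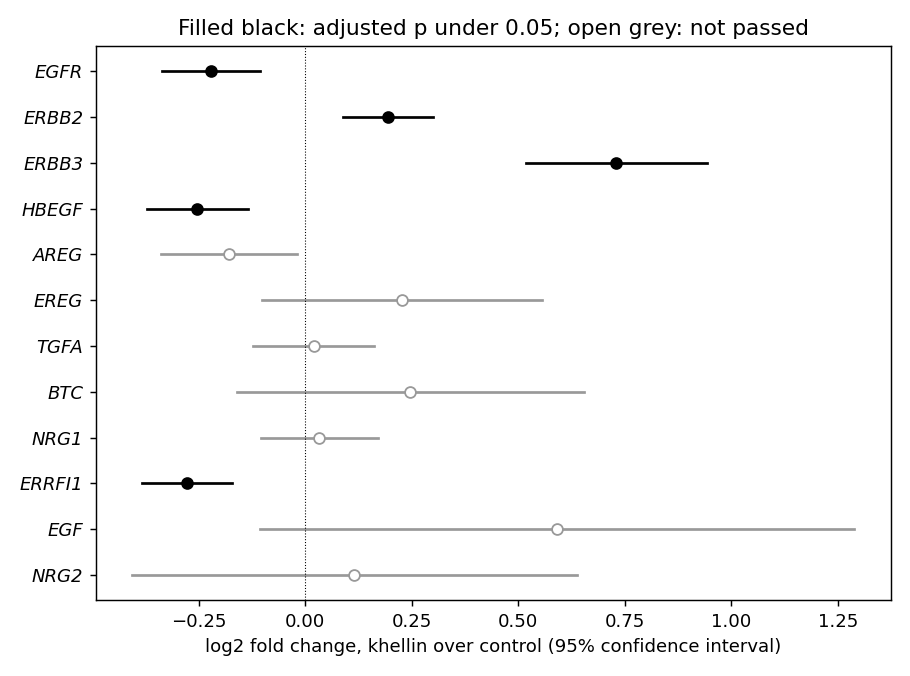
Log2 fold changes, khellin over control, with 95% confidence intervals for the 10 genes and for EGF and NRG2, where filled black marks an adjusted p under 0.05 and open grey a gene that did not pass. ERBB3 stands apart at 0.73, ERBB2 lies at 0.19, and EGFR, HBEGF and ERRFI1 lie between -0.28 and -0.22.

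The genes whose pattern over the 6 libraries was most like that of ERBB3 were GPRC5C, GLI2, TNFAIP8L1, ARHGAP33 and BTN3A3. Likeness was the root mean square difference of log2 CPM after each gene was centred on its own mean, over genes with a mean of at least 5 CPM. The difference was 0.04 for GPRC5C, 0.05 for GLI2 and 0.06 for the other 3. GPRC5C, an orphan receptor gene, averaged 6.25 CPM in khellin and 3.82 CPM in control libraries, and GLI2, a transcription factor gene of hedgehog signalling, averaged 11.5 CPM in khellin and 6.61 CPM in control libraries. ERBB3 is more abundant in luminal than in mesenchymal breast cells, so markers of both kinds were examined beside it. Of 10 luminal markers 6 were tested, of which 2 were higher with khellin and none lower. This count and those of the other marker lists stand against 10.6% of all tested genes called higher and 8.82% called lower. SPDEF, a luminal transcription factor gene, had 124, 113 and 123 reads in khellin and 52, 60 and 73 reads in control libraries (log2 fold change 0.96, SE 0.135, edgeR adjusted p = 0.00132). ELF3, an epithelial transcription factor gene, had 31, 25 and 47 reads in khellin and 7, 17 and 5 reads in control libraries, with a log2 fold change of 1.81 (SE 0.405, edgeR adjusted p = 0.0144) whose call was lost without khellin replicate 3 (adjusted p = 0.0602). GATA3 and FOXA1 stood at 0.11 (SE 0.0844) and -0.13 (SE 0.0968) without passing. The summed level of the 10 luminal markers was 67.3 to 69.3 CPM in khellin and 59.2 to 65.4 CPM in control libraries. Mesenchymal and basal markers also moved, with 3 of 8 tested higher, 2 lower and a median of 0.14. FN1, the fibronectin gene, averaged 361 CPM in khellin and 233 CPM in control libraries (log2 fold change 0.63, SE 0.0596, edgeR adjusted p = 0.000151), CAV1 and SNAI2 rose by 0.32 and 0.26, and CD44 and MSN fell by 0.29 and 0.32 on the log2 scale. These 8 markers summed to 5465 to 5575 CPM in khellin and 5532 to 5813 CPM in control libraries. Markers of fibroblasts and endothelium summed to 19.2 to 19.95 CPM in khellin and 12.9 to 13.7 CPM in control libraries, with 3 of 4 tested genes higher, COL1A1, PDGFRB and PECAM1, and the defining endothelial gene CDH5 at no more than 1 read in any library. Blood cell markers summed to 2.64 to 3.90 CPM in khellin and 2.04 to 2.28 CPM in control libraries, with CD14 higher of 2 tested and PTPRC at 3, 6 and 1 reads in khellin and 3, 0 and 0 reads in control libraries. The part of these markers in the ERBB results was not tested.

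Genes that act beside the ERBB receptors were read in 4 lists, whose counts stand against 10.6% of all tested genes called higher, 8.82% called lower and 38.2% not overlapping. Of 10 genes of ligand release, 1 rose with khellin and 3 fell, with a median log2 fold change of -0.02. ADAM17, the main protease that frees AREG, TGFA and HBEGF from the membrane, did not pass, with 69.2, 63.9 and 64.6 CPM in khellin and 68.5, 66.3 and 57.9 CPM in control libraries. RHBDF2, which encodes iRhom2, 1 of the partners in the maturation of ADAM17, fell to 55.9, 59.2 and 55.2 CPM in khellin libraries, against 68.3, 70.3 and 72.1 CPM in control libraries (log2 fold change -0.31, SE 0.0525, edgeR adjusted p = 0.00359). RHBDF1, which encodes the related partner iRhom1, was more abundant and did not pass. It averaged 76.1 CPM in khellin and 81.2 CPM in control libraries (log2 fold change -0.09, SE 0.0522, edgeR adjusted p = 0.254). TIMP3, an inhibitor of ADAM17, had 48.7, 45.8 and 44.2 CPM in khellin and 31.3, 31.4 and 35.4 CPM in control libraries (log2 fold change 0.50, SE 0.0701, edgeR adjusted p = 0.0013). ADAM12, a related protease gene, had 26, 36 and 29 reads in khellin and 56, 61 and 79 reads in control libraries (log2 fold change -1.11, SE 0.190, edgeR adjusted p = 0.00363). ADAM15 fell by 0.24 (SE 0.0484, edgeR adjusted p = 0.00908) and lost its call without khellin replicate 1 (adjusted p = 0.0554) or khellin replicate 3 (adjusted p = 0.0584).

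Adaptors, kinases and effectors that carry the signal onward mostly did not pass. Of 28 listed, 27 were tested, 1 rose and 2 fell, with a median of 0.02. MAPK3, which encodes the kinase ERK1, rose by 0.19 (SE 0.0551, edgeR adjusted p = 0.0418), and the adaptor gene SHC1 and the kinase gene SRC fell by 0.17 (SE 0.0409, edgeR adjusted p = 0.0193) and 0.18 (SE 0.0513, edgeR adjusted p = 0.0331). Each of these 3 calls was lost without control replicate 2 and without khellin replicates 1, 2 or 3, with edgeR adjusted p-values from 0.0526 to 0.152, and that of MAPK3 also without control replicate 1 (0.0693). The MAPK3 call was lost too with RLE factors, upper quartile factors and DESeq2 (0.0608 to 0.0801), the SRC call with upper quartile factors and library size only (0.054 and 0.0798), and the SHC1 call with library size only (0.0607).

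Of the genes of receptor attenuation and traffic, 3 of 26 tested were higher and 3 lower, with a median of -0.03. Called genes were thus about as frequent in the list as among all tested genes, of which 19.4% were called. PTPRJ, a phosphatase that acts on EGFR, rose to 171, 173 and 173 CPM in khellin libraries, against 123, 121 and 117 CPM in control libraries (log2 fold change 0.52, SE 0.0414, edgeR adjusted p = 5.33e-05). LRIG1, a membrane protein that promotes the breakdown of ERBB receptors, rose by 0.34 (SE 0.0861, edgeR adjusted p = 0.0238), and CBL, the ubiquitin ligase that marks EGFR for the lysosome, by 0.24 (SE 0.0707, edgeR adjusted p = 0.0407). LRIG1 lost its call without khellin replicates 1, 2 or 3 (0.0577 to 0.101) and CBL without these or control replicate 2 (0.0786 to 0.145). RAB7A, a GTPase of late endosomes, fell to 488, 472 and 483 CPM in khellin libraries, against 582, 569.9 and 608 CPM in control libraries (log2 fold change -0.29, SE 0.0411, edgeR adjusted p = 0.00145). The other 2 that fell were the endocytic adaptor gene EPS15L1, by 0.23, and the phosphatase gene PTPN1, by 0.14. EPS15L1 lost its call without control replicate 2 (0.0548) or khellin replicate 3 (0.0587), and PTPN1 lost its call without control replicate 2 or any khellin replicate (0.0588 to 0.166), with upper quartile factors (0.0692) and with library size only (0.131).

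Genes known to be transcribed in answer to ERK signalling were read as a list of their own, with 8 higher and 4 lower of 18 tested, a median of 0.09 and 14 of 18 not overlapping between khellin and control libraries. The shares over all tested genes were 10.6%, 8.82% and 38.2% in the same order of higher, lower and not overlapping, and the list as a whole was not tested. SPRY1, which encodes a Sprouty protein that dampens receptor tyrosine kinase signals, had 48.0, 47.6 and 50.9 CPM in khellin and 19.6, 18.7 and 19.4 CPM in control libraries (log2 fold change 1.35, SE 0.0600, edgeR adjusted p = 3.53e-06). The phosphatase gene DUSP4, which acts on ERK, had a log2 fold change of 0.65 (SE 0.0404, edgeR adjusted p = 1.39e-05). ETV1, an ETS transcription factor gene, had 89.9, 83.4 and 94.0 CPM in khellin and 70.0, 57.6 and 52.1 CPM in control libraries (log2 fold change 0.57, SE 0.102, edgeR adjusted p = 0.00578). The other genes called higher were PHLDA1, SPRY2, EGR1, ETV5 and IER3, with log2 fold changes of 0.19 to 0.36, of which IER3 lost its call without control replicate 2 (edgeR adjusted p = 0.0564). DUSP5, FOSL1 and EPHA2 were called lower, with log2 fold changes of -0.30 to -0.19. The EPHA2 call ended when khellin replicate 1 (edgeR adjusted p = 0.0938), khellin replicate 3 (0.0905) or control replicate 2 (0.0776) was left out, and with library size only (0.0503). MYC fell, with a log2 fold change of -0.41 (SE 0.0442, edgeR adjusted p = 0.000292). DUSP6, another ERK phosphatase gene, and the cyclin gene CCND1 stood at 0.10 (SE 0.0566) and -0.08 (SE 0.0416) and did not pass.

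**Figure D4:**
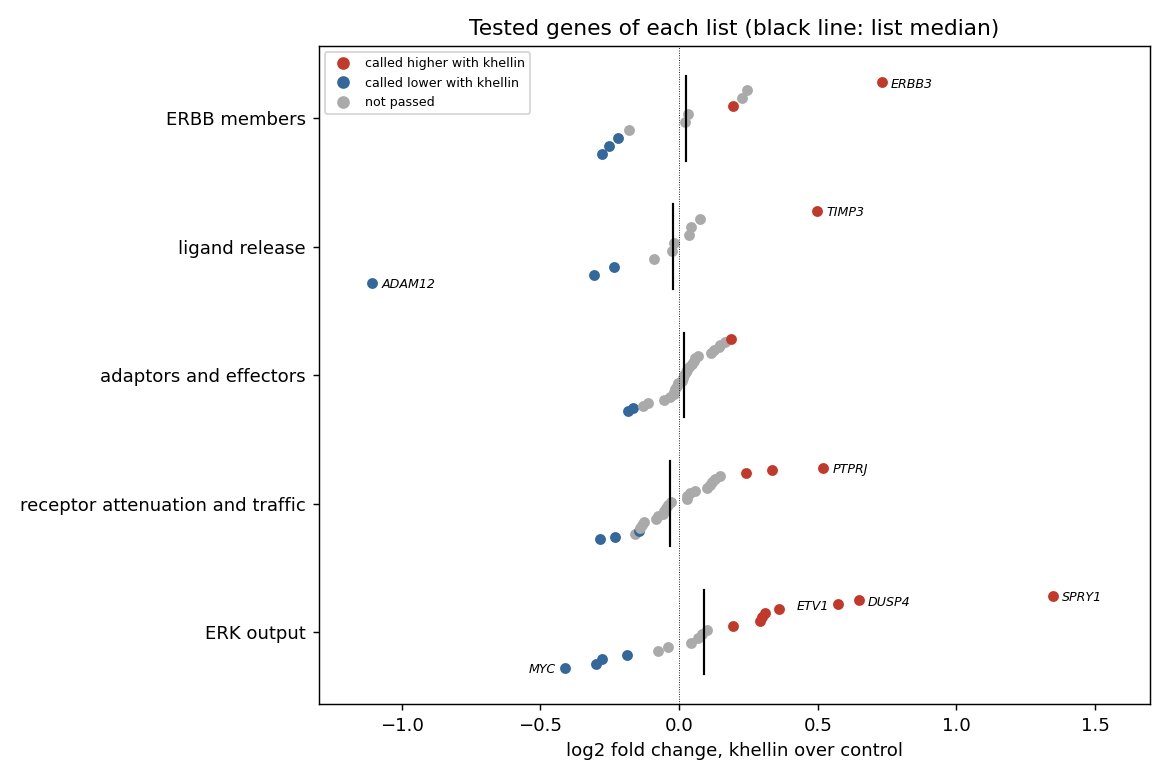
Log2 fold changes, khellin over control, of the tested genes of the 10 ERBB genes and of 4 lists, with red for genes called higher with khellin, blue for genes called lower, grey for genes that did not pass and a black line for each median. SPRY1 and ADAM12 lie furthest out, at 1.35 and -1.11, and the adaptor and effector genes lie closest to 0.

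**Figure D5:**
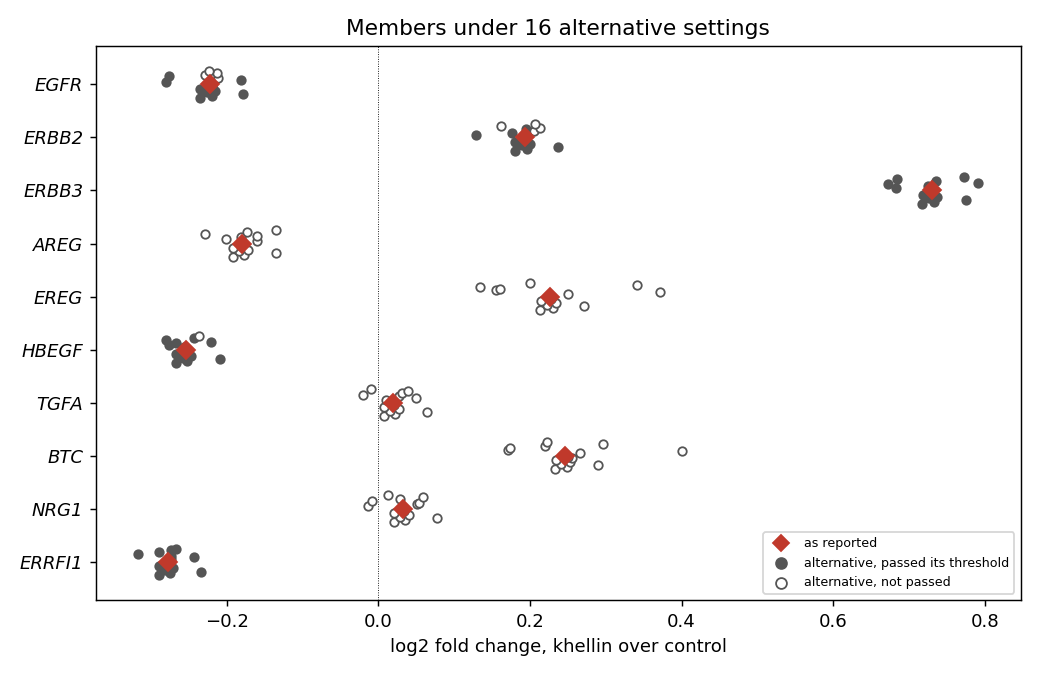
Log2 fold changes, khellin over control, of the 10 genes as reported (red diamonds) and under 16 alternative settings (circles, filled where the adjusted p passed its threshold). ERBB3 and ERRFI1 passed throughout, EGFR and ERBB2 failed in 5 settings each, and TGFA and NRG1 lie on either side of 0.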

How the data were processed

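RNA was extracted with TRIzol and libraries of polyadenylated RNA were made with a VAHTS kit, per the labels' protocols. The authors deposited raw read counts per gene, and fastp, HISAT2 and HTSeq are named in the submitters' processing notes. Their versions, the build, the annotation and the strand setting are not given in the sources used here. GRCh38 was inferred, since 25371 of 25378 identifiers shared with GENCODE 29 overlapped it. Groups came from the sample titles. The members and lists were chosen with earlier results of these data known, and genes named in the lists were chosen by rule: the 4 called genes with the largest change per list. The other called genes of the lists of 3 or fewer per direction, ADAM17, RHBDF1, DUSP6, CCND1, the mesenchymal markers beside ERBB3 and the other called genes of ERK output were chosen after seeing their values.

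CPM were computed with TMM factors. Genes kept by filterByExpr entered a robust quasi-likelihood fit in edgeR on group alone, and calls needed a two-sided Benjamini-Hochberg adjusted p under 0.05. The standard error was the absolute log2 fold change divided by the square root of F. Other settings were DESeq2, limma-voom, RLE or upper quartile factors, no factors beyond library size, a minimum of 1 CPM in 3 libraries or no filter, a block for replicate number, a threshold of 0.01, each library left out and, added after the data were seen, a length and GC correction (mgcv). The fit was tested on simulated data. Marker genes other than SPDEF and ELF3 were not recomputed under these settings. Intervals that cover counting error treat reads as independent molecules. Python 3.11.15 and R 4.3.3 were used, with DESeq2 1.42.0, mgcv 1.9.3, limma 3.58.1 and edgeR 4.0.16.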

Additional observations from a re-analysis of the deposited data

How the results depend on the processing

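In all, 44 genes were recomputed under 16 alternatives. Among the called members, ERBB3 and ERRFI1 kept direction and call throughout, and EGFR, ERBB2 and HBEGF kept their direction. At an adjusted p under 0.01, 808 genes were higher and 608 lower, and 1 member (ERBB3) was higher and 2 (HBEGF and ERRFI1) lower, as ERBB2 and EGFR fell short of that threshold. The length and GC correction called 2296 genes higher and 2773 lower. The share of higher calls was 45.3% with it, 69.1% with library size only and 54.6% with TMM. The cause was not tested. With 1 library left out, the genes called higher ranged from 919 to 1990 and those called lower from 643 to 1722, the members called higher from 1 to 2 and the members called lower from 1 to 3. The sign of 3 uncalled genes turned. NRG1 stood at -0.0140 with the length and GC correction. With 1 library left out, NRG1 ranged from -0.00879 to 0.0595, TGFA from -0.0195 to 0.0494 and NRG2 from -0.0705 to 0.389 on the log2 scale. EGF passed without control replicate 1 alone (edgeR adjusted p = 0.046). The replicate numbers did not pair the samples: deviations of same-numbered khellin and control libraries correlated at 0.43, 0.08 and -0.39 over genes. Differently numbered libraries correlated from -0.64 (khellin 2 with control 1) to 0.58 (khellin 2 with control 3). What these libraries shared was not tested. With a replicate block, 1533 genes were higher and 1282 lower, and the members kept their 2 and 3 calls, while MAPK3 (edgeR adjusted p = 0.0625), SRC (0.0561) and PTPN1 (0.0615) no longer passed. Depth limits BTC, EGF and NRG2, where counting error alone is 13.4% to 20.7% of the level. EGF and NRG2 also varied beyond counting error. The coefficient of variation was 29.5% in khellin and 38.1% in control libraries for EGF, and 17.7% and 31.6% for NRG2.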
